A study of Mus musculus with 5 samples.

Results

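Prostaglandin synthesis was followed here through 8 genes, together with the long pentraxin Ptx3, in tibialis anterior muscle of old female mice. The genes were the cyclooxygenases Ptgs1 and Ptgs2, the terminal synthases Ptges, Ptgis and Ptgds, the degrading enzyme Hpgd, the prostaglandin E2 receptors Ptger2 and Ptger4, and Ptx3. All 9 were found by symbol among 55357 genes of the count tables. The list was drawn up with levels from these libraries already known, and Ptx3 and Ptgs2 were selected on their frail and control levels, which were lower in frail muscle. The other 7 genes are listed by symbol, also with their levels known. The Ptx3 and Ptgs2 values are therefore a description and carry no test.

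The study compared C57BL/6 females of one age, 26 months, that were sorted by a frailty index. There were 2 frail libraries, from animals scoring at least 0.18, and 3 control libraries of the same strain, sex and age. No transgene or treatment is named for either group. Each library is a 10x Chromium 3′ library, in which a unique molecular identifier (UMI) stands for 1 captured RNA molecule. The study's design text describes enzymatic digestion to whole cells, while its sample protocol describes lysis and sorted nuclei, so the units counted are called barcodes. Nothing states that libraries of a group came from separate animals, and p-values measure the spread between these libraries only.

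Prostaglandins are short-range lipid signals made from arachidonic acid. Cyclooxygenases convert the acid to prostaglandin H2, terminal synthases turn that intermediate into prostaglandin E2, prostacyclin or prostaglandin D2, and Hpgd inactivates the products by oxidation. In mouse muscle, prostaglandin E2 is known to act on satellite cells through the receptor encoded by Ptger4, and Hpgd is known as an enzyme whose activity limits that signal in aged muscle. Ptx3 encodes a secreted pattern-recognition protein induced by inflammatory cytokines, which binds the Tnfaip6 protein in hyaluronan-rich matrix.

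The frail libraries held 11401 and 11690 barcodes with 72043464 and 70155746 UMIs. The control libraries held 9791 to 13303 barcodes with 68170531 to 90942121 UMIs. Keeping barcodes with at least 200 genes and at most 10% mitochondrial UMIs left 9351 and 10517 frail barcodes, against 8650 to 12088 control barcodes. The median mitochondrial share was 4.14% and 4.05% in the frail libraries and 3.08% to 3.39% in the control libraries. Lineages were gated by at least 2 UMIs of 1 of the genes Cdh5 (endothelial), Pdgfra (fibro-adipogenic), Rgs5 (mural), C1qa (macrophage), Cpa3 (mast cell) and Pax7 (satellite cell), with at most 1 UMI of each of the other 5. Levels are given as CPM, the UMIs of a gene per 1000000 UMIs of the same library and gate. The fibro-adipogenic gate held 2313 and 2518 barcodes in frail, against 1933, 1994 and 3631 in control, the endothelial gate 1969 and 3149, against 1919, 1513 and 1244, and the macrophage gate 202 and 301, against 560, 419 and 464. In each gate the lineage's other marker genes were higher than in the other 5 gates. The summed level of 7 myofibre markers was lower in frail than in control libraries in each of the 6 gates, at 28.6 and 95.5 CPM in frail Pdgfra barcodes and 510.3 to 1436 in control ones. Its part in the differences below was not tested. The summed level of 4 keratinocyte markers was highest in control library 3 in each of the 6 gates. It was 409.5 CPM in Pdgfra and 2763 in Rgs5 barcodes of that library, against 15.4 to 20.6 and 11.9 to 17.4 in the others. What this adds to the values of control library 3 was not tested. Any 2 libraries shared 27 to 49 barcode sequences, at most 0.456% of the smaller library.

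Promoter sequence is shown for the 2 genes chosen as lower in frail muscle and, beside them, for Ptgs1, which encodes the other cyclooxygenase. RefSeq windows (GRCm38.p6) were found for 8 of the 9 genes, all but Ptgis, each reaching from 250 bases before the transcript start to 50 bases after it. The windows below lie on the plus strand at chr1:150099781-150100080 (Ptgs2), chr3:66219637-66219936 (Ptx3) and chr2:36230176-36230475 (Ptgs1). Capitals mark matches to any motif searched.
Ptgs2: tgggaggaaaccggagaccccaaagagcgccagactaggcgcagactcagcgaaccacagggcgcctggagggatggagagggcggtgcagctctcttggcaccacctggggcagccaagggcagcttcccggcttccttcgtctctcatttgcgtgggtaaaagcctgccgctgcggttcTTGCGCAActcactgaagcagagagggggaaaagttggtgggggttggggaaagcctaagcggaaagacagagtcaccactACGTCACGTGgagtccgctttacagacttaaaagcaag
Ptx3: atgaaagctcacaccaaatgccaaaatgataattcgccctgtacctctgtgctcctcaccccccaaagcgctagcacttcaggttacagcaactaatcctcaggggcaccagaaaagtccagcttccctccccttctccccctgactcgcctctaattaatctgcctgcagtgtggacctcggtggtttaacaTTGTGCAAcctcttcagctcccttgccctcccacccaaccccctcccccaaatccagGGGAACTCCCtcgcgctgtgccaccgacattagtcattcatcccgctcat
Ptgs1: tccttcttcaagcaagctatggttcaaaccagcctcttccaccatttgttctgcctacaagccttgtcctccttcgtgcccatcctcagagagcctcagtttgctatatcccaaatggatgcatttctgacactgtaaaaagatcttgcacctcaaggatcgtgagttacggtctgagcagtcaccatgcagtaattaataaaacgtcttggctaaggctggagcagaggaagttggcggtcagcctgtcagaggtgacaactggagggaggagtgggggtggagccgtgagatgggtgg
Both strands were searched for a C/EBP motif (TTNNGCAA), an NF-kappa-B-like motif (GGGA, any 4 bases, CC), a CRE core (ACGTCA), an E-box (CACGTG), an AP-1 motif (TGANTCA) and a TATA box (TATAAA). With the transcript start as base 0, Ptgs2 held a C/EBP match at bases -69 to -62, and a CRE core at bases 12 to 17 that overlapped an E-box at bases 16 to 21. Ptx3 held a C/EBP match at bases -57 to -50 and an NF-kappa-B-like match at bases 0 to 9. These Ptx3 positions count from its RefSeq start, which lies upstream of the annotated gene start at 66219910. No motif matched in the Ptgs1 window. The C/EBP letters occurred in 3 of the 8 windows, the third being that of Ptger2, and in 10.8% of 32851 mouse promoter windows. The NF-kappa-B-like letters occurred in 20.7% of all windows, the CRE core in 7.51%, the E-box in 7.15%, the AP-1 motif in 7.81% and the TATA box in 13.6%. Each match describes letters, not a bound site.

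Ptx3 and Ptgs2 were lower in both frail libraries, over all retained barcodes and in the fibro-adipogenic, endothelial, mural and macrophage gates. No difference in the other 7 genes passed the edgeR test, in all barcodes or in any gate. Over all barcodes, the frail libraries lay below every control library for Ptx3 and Ptgs2, 2 of the 9 genes, and above every control library for none. Of all 19989 genes tested, 10.5% lay below in this way and 9.48% above. The edgeR quasi-likelihood test with Benjamini-Hochberg adjustment called 0 of the 19989 genes (percent called 0), against 1119 genes at an unadjusted p under 0.05 and 288 called by DESeq2. In such sums, fewer cells of a type and less RNA per cell cannot be told apart.

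**Figure D1:**
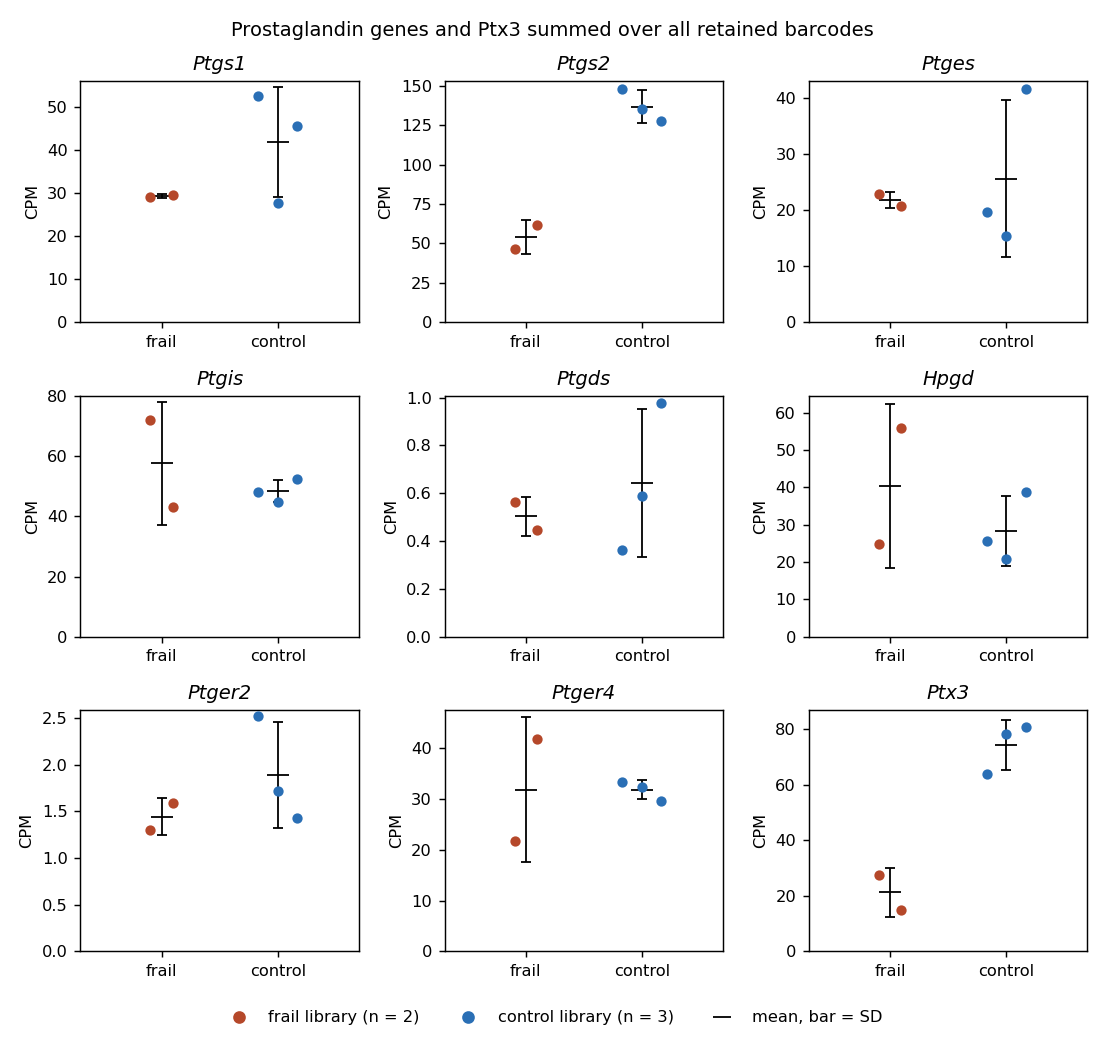
CPM over all retained barcodes, on a linear vertical axis from 0 in each panel, for each gene in the frail (left, n = 2) and control (right, n = 3) libraries; points are libraries, the wide tick is the mean and the bar the SD. For Ptx3 and Ptgs2 the frail points lie below all control points, at 15.0 and 27.4 against 64.0 to 80.7 and at 46.6 and 61.5 against 128 to 148 CPM, and for the other 7 genes the groups overlap.

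Ptgs2, the inducible cyclooxygenase (ENSMUSG00000032487, chr1, GRCm38, 150100031 to 150108227, plus strand), had 46.6 and 61.5 CPM over all barcodes of frail libraries 1 and 2, against 148, 135 and 128 in control libraries 1 to 3. The groups did not overlap. The means were 54.0 ± 10.5 in frail and 137 ± 10.2 in control (SD, n = 2 and 3), 2.53-fold lower in frail. The fitted log2 difference was -1.37 with a standard error of 0.18. Of the 5 gates other than the mast cell gate, the fibro-adipogenic gate held the highest Ptgs2 level, with 52.2% to 69.0% of each library's Ptgs2 UMIs. The mast cell gate, with 40 barcodes in all, is left out of each order of levels given here, and held 0 and 34 Ptgs2 UMIs in frail, against 0, 1 and 8 in control. In fibro-adipogenic barcodes Ptgs2 had 98.2 and 139 CPM in frail, against 312, 294 and 205 in control. Both frail libraries were again below every control library, with a log2 difference of -1.23 (SE 0.26). Endothelial barcodes had 7.51 and 7.65 CPM in frail, against 21.5, 24.4 and 19.7 in control, and macrophage barcodes had 12.7 and 12.9, against 32.6, 53.7 and 43.4. Mural barcodes had 14.2 and 17.7 in frail, against 47.2, 22.4 and 51.3 in control. The groups were apart in each of these gates too. In mural barcodes the immediate early genes, which tissue dissociation can induce, were also shifted. There 19 of 22 were lower in frail, 13 of them apart. Of all genes tested there, 48.8% were lower and 10.8% were apart and lower. The median log2 difference was -0.61, against 0.01 over all genes. In endothelial barcodes 18 of 22 were lower, 6 of them apart (7.9% of all genes), with a median of -0.11. In fibro-adipogenic and macrophage barcodes 12 and 8 of the 22 were lower. The part of immediate early genes in these Ptgs2 values was not tested. In the satellite cell gate Ptgs2 rested on 1 and 1 UMI in frail, against 6, 3 and 19 UMIs in control.

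Ptgs1 encodes the constitutive cyclooxygenase (ENSMUSG00000047250, chr2, 36230426 to 36252272, plus strand). Over all barcodes it had 29.0 and 29.6 CPM in frail, against 52.5, 27.7 and 45.6 in control, and the groups overlapped through control library 2. The log2 difference was -0.53 (SE 0.26, edgeR adjusted p = 0.932). In fibro-adipogenic barcodes Ptgs1 had 24.8 and 19.0 CPM in frail, against 64.7, 32.4 and 38.4 in control. Here the groups were apart, at 21.9 ± 4.14 in frail and 45.1 ± 17.2 in control (SD, n = 2 and 3), and the log2 difference of -1.07 (SE 0.32) did not pass the test, with an edgeR adjusted p of 0.716. The spread among control libraries was wide, with control library 1 the highest. Endothelial barcodes showed no such separation for Ptgs1, with 44.2 and 49.0 CPM in frail, against 45.3, 31.3 and 57.7 in control. The difference between the 2 gates in the frail effect was -1.12 on the log2 scale (SE 0.32) and did not pass either (limma adjusted p = 0.998, with 0 of 13905 genes called, percent called 0). Across gates, Ptgs1 was highest in macrophage and endothelial barcodes, at 51.8 and 45.5 CPM averaged over the 5 libraries, with overlapping ranges.

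Ptges, which makes prostaglandin E2 (ENSMUSG00000050737, chr2, 30889471 to 30929863, minus strand), did not separate the groups over all barcodes, with 22.8 and 20.7 CPM in frail, against 19.7, 15.4 and 41.5 in control. It was concentrated in fibro-adipogenic barcodes, which held 60.2% to 72.2% of its UMIs. There it had 56.9 and 48.7 CPM in frail, against 48.1, 38.8 and 70.5 in control, with means of 52.8 ± 5.74 and 52.5 ± 16.3 (SD, n = 2 and 3). In the endothelial gate the frail libraries lay below the control ones at a low level, 2.00 and 2.12 CPM in frail against 4.16, 2.59 and 6.72 in control. The log2 difference there was -1.09 (SE 0.44, edgeR adjusted p = 1), and it rested on 24 and 31 UMIs in frail, against 42, 20 and 43 in control.

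Ptgis, the prostacyclin synthase (ENSMUSG00000017969, chr2, 167191805 to 167240604, minus strand), had 72.1 and 43.2 CPM over all barcodes in frail, against 48.3, 44.8 and 52.4 in control. The 2 frail libraries lay on either side of the control range. Ptgis was highest in mural and fibro-adipogenic barcodes, at 52.6 and 46.9 CPM over the 5 libraries, with overlapping ranges, and both lay apart from the macrophage gate at 17.6. With gates at 1 UMI that order did not hold, since macrophage barcodes had 62.2 CPM of Ptgis and fibro-adipogenic barcodes 52.6, with overlapping ranges. In fibro-adipogenic barcodes it had 45.7 and 38.3 CPM in frail, against 51.7, 56.3 and 42.6 in control (log2 difference -0.28, SE 0.20, edgeR adjusted p = 0.978). 1110018N20Rik, annotated as a processed transcript on the opposite strand, overlaps Ptgis and had 2.82 to 10.2 CPM over all barcodes and 9.69 to 26.6 CPM in the endothelial gate. Ptgds, a prostaglandin D2 synthase (ENSMUSG00000015090, chr2, 25466709 to 25470046, minus strand), was near the detection limit, with 38 and 30 UMIs in all frail barcodes, against 24, 41 and 86 in control ones. Its level was highest in satellite cell barcodes, at 10.9 CPM over the 5 libraries, with a range that overlapped the next gate. This rested on 9 and 1 UMIs in frail, against 10, 0 and 21 in control.

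Hpgd, the dehydrogenase that inactivates prostaglandins (ENSMUSG00000031613, chr8, 56294585 to 56321043, plus strand), was highest in macrophage barcodes, at 157 CPM over the 5 libraries, apart from the fibro-adipogenic gate at 47.3. Macrophage barcodes had 114 and 309 CPM in frail, against 155, 90.8 and 115 in control. Only frail library 2 exceeded all control libraries, and the log2 difference was 0.80 (SE 0.39, edgeR adjusted p = 1). In that library 71.1% of macrophage barcodes had an Hpgd UMI, against 44.1% in frail library 1 and 55.0%, 40.1% and 40.3% in the control libraries. Frail library 2 was again the highest in fibro-adipogenic barcodes, with 42.6 and 89.9 CPM in frail, against 25.0, 31.6 and 47.3 in control. The log2 difference of 0.91 (SE 0.33) did not pass the test (edgeR adjusted p = 0.871). Over all barcodes Hpgd had 24.8 and 55.9 CPM in frail, against 25.6, 20.7 and 38.8 in control, and without frail library 2 its log2 difference of 0.48 (SE 0.36) became -0.15.

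Ptger4, a prostaglandin E2 receptor (ENSMUSG00000039942, chr15, 5206661 to 5244187, minus strand), was detected in 5 gates at 10 CPM or more in every library. Its level averaged 85.1 CPM in macrophage, 46.0 in endothelial, 34.8 in satellite cell, 21.3 in fibro-adipogenic and 16.2 in mural barcodes, and the ranges of macrophage and endothelial barcodes overlapped although macrophage barcodes were higher in 5 of 5 libraries. Endothelial barcodes had 27.7 and 77.1 CPM in frail, against 43.7, 42.7 and 38.6 in control, so the 2 frail libraries bracketed the control ones. In satellite cell barcodes both frail libraries were lower, with 24.3 and 33.7 CPM against 38.0, 42.1 and 35.7 in control. This rested on 22 and 34 UMIs in frail and 13, 13 and 53 in control, and the log2 difference of -0.39 did not pass the test (edgeR adjusted p = 0.998). The gene Ttc33 overlaps Ptger4 on the opposite strand, at 24.9 to 36.0 CPM over all barcodes. Ptger2, the other prostaglandin E2 receptor measured (ENSMUSG00000037759, chr14, 44988195 to 45003820, plus strand), was scarce, at 1.30 and 1.58 CPM in frail, against 2.52, 1.71 and 1.43 in control over all barcodes. Its level was highest in macrophage barcodes, with 4.03 and 6.01 CPM in frail, against 13.4, 10.2 and 5.54 in control, and control library 3 fell between the frail ones. In fibro-adipogenic barcodes the frail libraries were slightly higher, 1.63 and 1.45 CPM against 1.25, 0.781 and 1.39, from 32 and 30 UMIs in frail and 23, 13 and 44 in control.

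Ptx3 (ENSMUSG00000027832, chr3, 66219910 to 66225805, plus strand) had 27.4 and 15.0 CPM over all barcodes in frail, against 64.0, 78.3 and 80.7 in control. Every control library was more than 2-fold above either frail one. The means were 21.2 ± 8.77 in frail and 74.3 ± 9.03 in control (SD, n = 2 and 3), 3.50-fold lower in frail, with a fitted log2 difference of -1.81 (SE 0.30). Leaving out 1 frail library moved that difference to between -2.37 and -1.41. Ptx3 lies inside Veph1, a gene on the opposite strand that had at most 0.979 CPM over all barcodes and at most 1.74 CPM in the fibro-adipogenic gate. In fibro-adipogenic barcodes Ptx3 had 63.4 and 33.8 CPM in frail, against 119, 155 and 124 in control (log2 difference -1.46, SE 0.30). That gate held 66.9% and 68.9% of the Ptx3 UMIs in frail libraries and 51.5%, 47.3% and 55.3% in control libraries.

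In endothelial, mural and macrophage barcodes the difference in Ptx3 was larger than in the fibro-adipogenic gate. Endothelial barcodes had 1.59 and 1.71 CPM in frail, against 13.0, 27.0 and 11.3 in control, and mural barcodes had 5.75 and 5.44, against 29.6, 31.0 and 49.3. In macrophage barcodes 3 and 0 UMIs of Ptx3 were counted in frail, against 38, 80 and 81 in control. The mast cell gate held 40 barcodes in all and 8 Ptx3 UMIs, each in control library 3. In satellite cell barcodes the groups overlapped, with 6 and 0 Ptx3 UMIs in frail, against 2, 2 and 14 in control. The fitted log2 difference was -3.38 (SE 0.49) in endothelial and -2.72 (SE 0.33) in mural barcodes. The limma fit put the endothelial fall 1.59 log2 units beyond the fibro-adipogenic one (SE 0.36). That fit called 0 of 13905 genes (percent called 0), and its Ptx3 value is a description only. Relative to its fibro-adipogenic level, the endothelial level of Ptx3 was 2.50% and 5.04% in frail and 10.9%, 17.4% and 9.04% in control. The same percentage for Dcn, a proteoglycan gene of fibroblasts, was 6.15% and 4.27% in frail, against 5.19%, 6.03% and 10.0% in control, so the groups overlapped for Dcn and were apart for Ptx3. Of 3 other stromal genes read in the same way, Col1a1 and Lum overlapped, while Col3a1 was apart and lower, at 4.66% and 3.06% in frail, against 4.76%, 8.63% and 5.72% in control. In macrophage barcodes the percentages of Dcn, Col1a1 and Col3a1 were below control in both frail libraries, and in mural barcodes those of Col1a1 and Col3a1 were. For Ptgs2 the endothelial percentage was 7.65% and 5.52% in frail, against 6.91%, 8.29% and 9.60% in control. Ptges, which overlapped between the groups in its own fibro-adipogenic level, was apart and lower by this measure. Its endothelial percentage was 3.52% and 4.34% in frail, against 8.66%, 6.68% and 9.53% in control. The mural and macrophage percentages of Ptges were below control in both frail libraries too, at low UMI counts. RNA of other cells in these barcodes was not removed, and its part in the endothelial, mural and macrophage values was not tested.

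**Figure D2:**
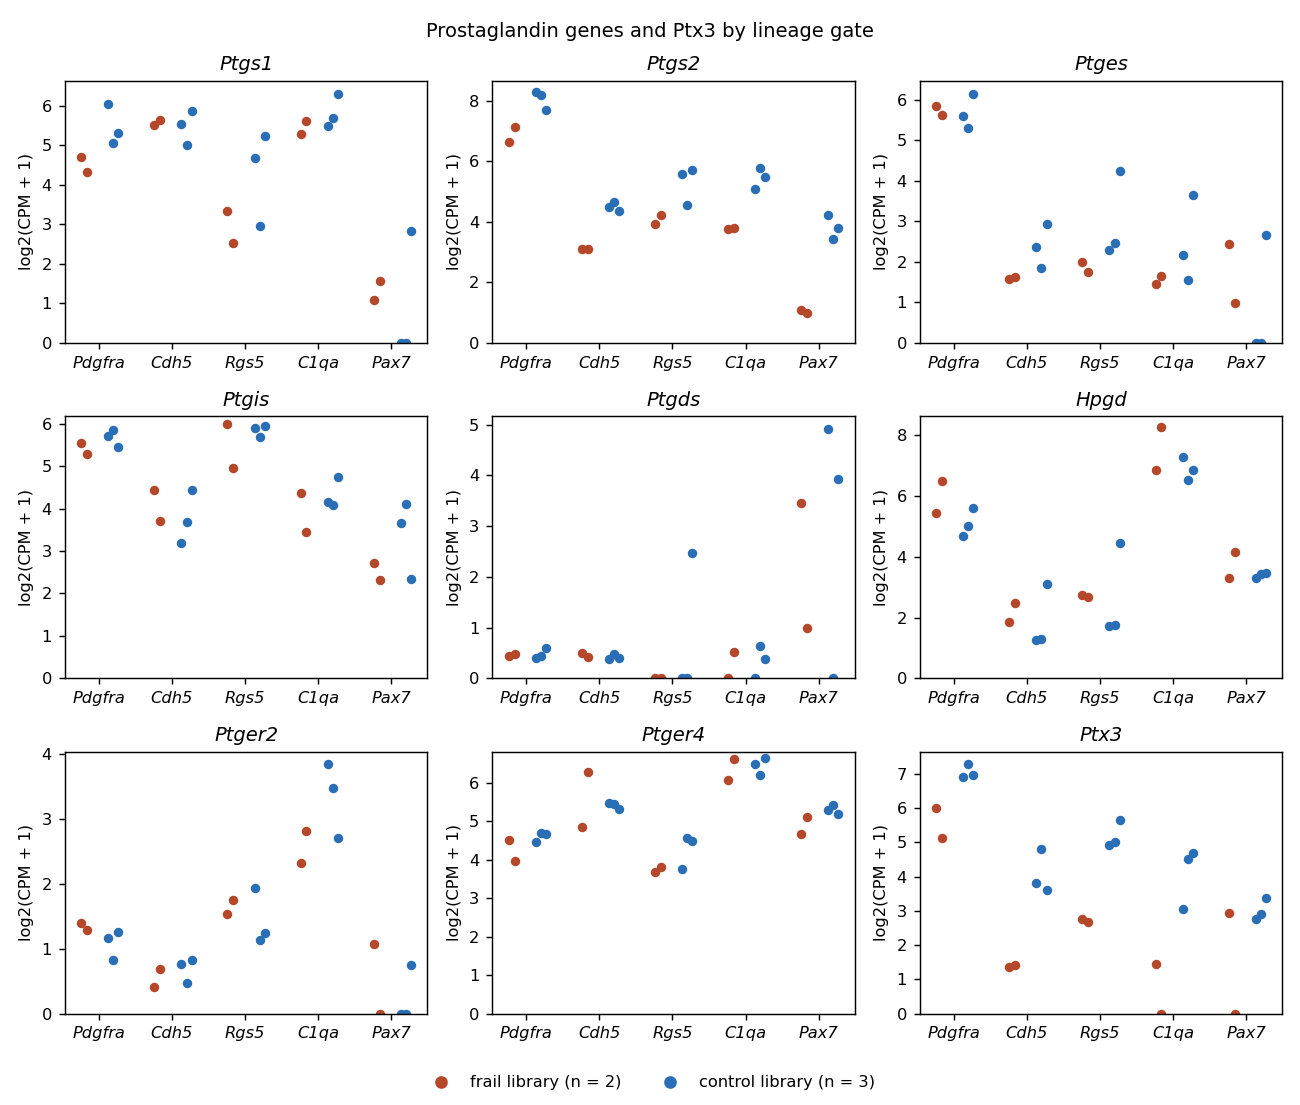
Level of each gene, as log2 of CPM plus 1, in 5 lineage gates; each point is a library, frail (n = 2) left of control (n = 3). Ptx3, Ptgs2 and Ptges are highest in the Pdgfra gate and Hpgd, Ptger2 and Ptger4 in the C1qa gate, averaged over the 5 libraries, and the frail points of Ptx3 and Ptgs2 lie below the control points in the Pdgfra, Cdh5, Rgs5 and C1qa gates.

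Counted by gate, the frail libraries lay below every control library for 3 of the 8 genes tested in fibro-adipogenic barcodes (Ptx3, Ptgs2 and Ptgs1), and above for Ptger2. Of all 15859 genes tested there, 9.6% lay below and 9.77% above. The counts below were 3 of 7 in the endothelial gate (Ptx3, Ptgs2 and Ptges), where 7.9% of all genes lay below, 4 of 7 in the mural gate (10.8%), 2 of 8 in the macrophage gate (10.3%) and 2 of 4 in the satellite cell gate (8.9%). The mural count includes Ptger4, which was apart only after TMM scaling. Since Ptx3 and Ptgs2 were chosen as lower, nothing is read from these counts. The edgeR test called none of the 7 genes other than Ptx3 and Ptgs2 in any gate. Of all genes it called 0.0252% in the fibro-adipogenic, 0.0276% in the endothelial and 0.0596% in the satellite cell gate. It called 0 genes in the mural and macrophage gates, where 887 and 586 genes had an unadjusted p under 0.05 and DESeq2 called 95 and 45.

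**Figure D3:**
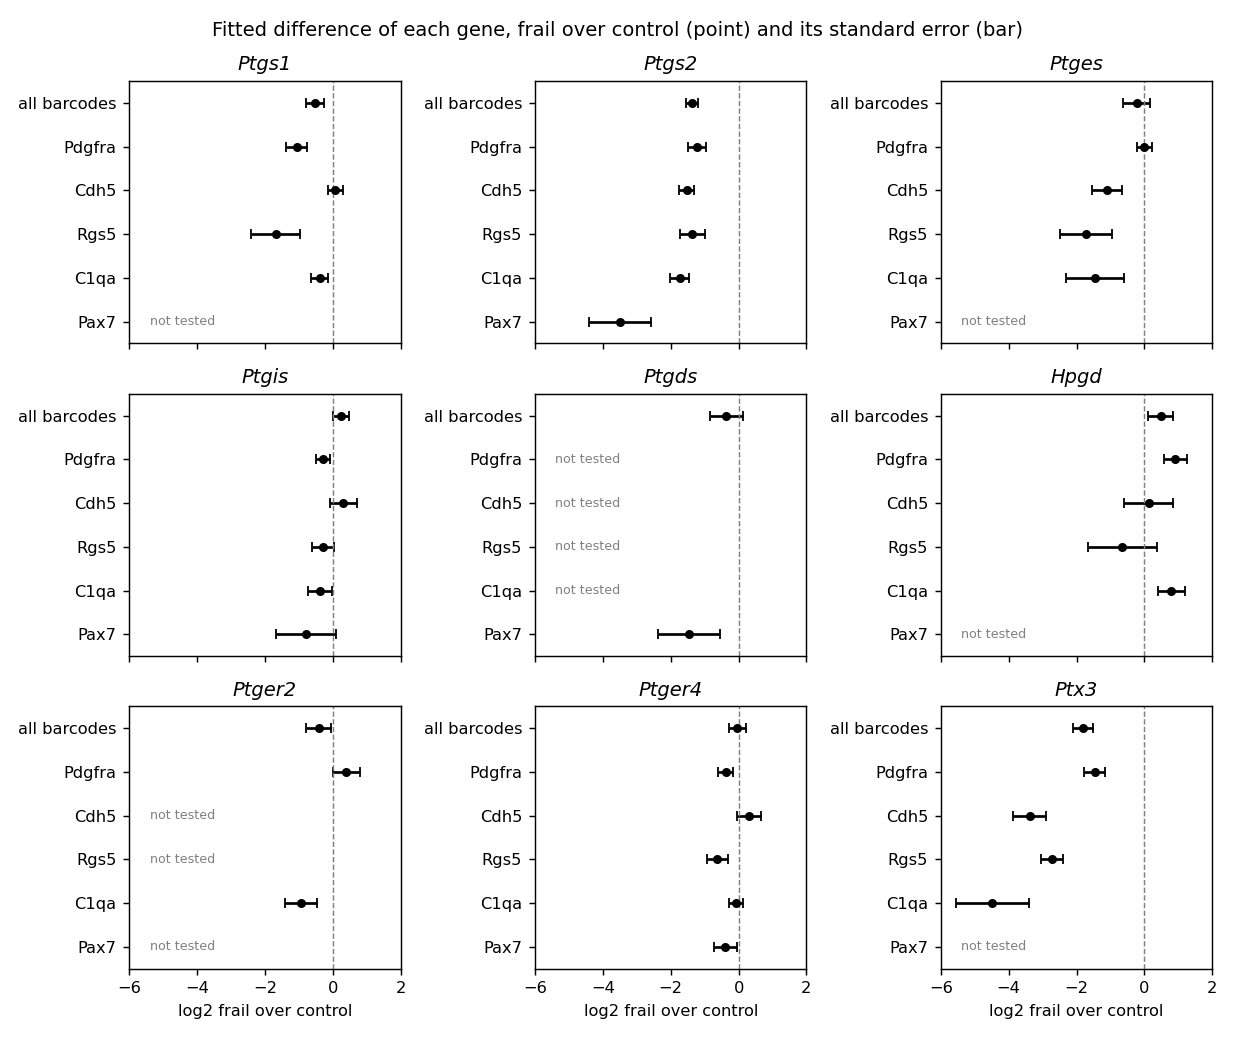
Fitted log2 difference, frail over control (point), with its standard error (bar) from the edgeR fits of all barcodes and of 5 gates, on a horizontal axis in log2 units with 0 dashed; grey marks genes removed by the filter on low counts. Ptx3 and Ptgs2 lie left of 0 in each fit that tested them, and the macrophage value of Ptx3 rests on 3 frail UMIs.

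The lower Ptx3 and Ptgs2 sums in the fibro-adipogenic gate came with fewer positive barcodes and with fewer UMIs in each. A Ptx3 UMI was found in 12.7% and 8.26% of these barcodes in frail, against 19.3%, 22.5% and 22.7% in control. The 95% Wilson intervals of the nearest pair were 11.4% to 14.1% for frail library 1 and 17.6% to 21.2% for control library 1, covering counting error only. The share of endothelial barcodes with a Ptx3 UMI was 0.609% and 0.540% in frail and 2.24%, 3.77% and 3.70% in control, at median depths of 3683 to 4476 UMIs against 7738 to 9073 in the fibro-adipogenic gate. Each fibro-adipogenic barcode was then thinned to 2000 UMIs, which 2289 and 2493 frail barcodes and 1924, 1983 and 3584 control barcodes reached. Thinned, the Ptx3 shares were 6.16% and 3.89% in frail, against 9.04%, 11.9% and 11.4% in control. Positive barcodes held 4.24 and 3.37 Ptx3 UMIs on average in frail, against 5.84, 5.73 and 4.77 in control. A Ptgs2 UMI was found in 26.5% and 29.0% of fibro-adipogenic barcodes in frail, against 50.5%, 43.5% and 41.2% in control. Those barcodes held 3.14 and 3.92 Ptgs2 UMIs in frail, against 5.87, 5.64 and 4.34 in control, so both measures kept the groups apart.

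Ptgs1 was found in 12.5% and 10.6% of fibro-adipogenic barcodes in frail, against 26.2%, 16.3% and 18.7% in control, groups that did not overlap. After thinning the shares were 3.67% and 3.17% in frail, against 9.20%, 4.89% and 6.14% in control (two-sided exact permutation p = 0.2, as before thinning). With 2 against 3 libraries that exact test cannot go below p = 0.1. The 1% of fibro-adipogenic barcodes richest in Ptx3 held 36.0% and 41.7% of its UMIs in frail, against 28.0%, 27.1% and 24.3% in control. The corresponding share was 7.72% to 10.99% for Ptges and 11.57% to 18.04% for Hpgd over the 5 libraries.

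**Figure D4:**
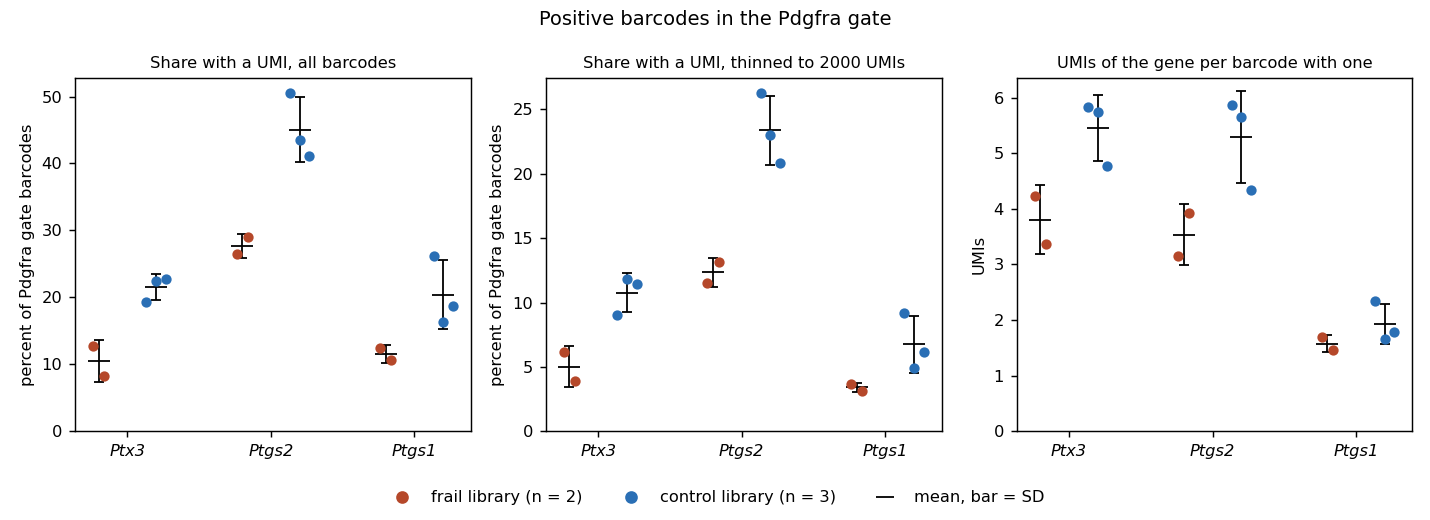
Fibro-adipogenic (Pdgfra) barcodes with a UMI of Ptx3, Ptgs2 or Ptgs1, in percent as counted (left) and after thinning to 2000 UMIs (middle), and UMIs of the gene per positive barcode (right); points are libraries, frail (n = 2) left of control (n = 3), with mean and SD. Ptx3 was found in 8.26% and 12.7% of frail against 19.3% to 22.7% of control barcodes, and the groups stay apart after thinning.

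Ptx3 and Ptgs2 were found in the same fibro-adipogenic barcodes more often than the product of their shares. Both genes were seen in 6.57% and 4.57% of barcodes in frail, where the product was 3.35% and 2.39%, and in 14.2%, 14.2% and 14.5% in control, where it was 9.78%, 9.79% and 9.35%. Hpgd was found less often than the product with Ptx3, at a ratio of observed share to product of 0.71 to 0.74 over the 5 libraries, and with Ptgs1, at 0.55 to 0.72, while its ratio was 1.03 to 1.24 with Ptges and 0.95 to 1.43 with Ptger4. Deeper barcodes hold more UMIs of every gene, which raises all such ratios, and no test was made across barcodes.

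The fibro-adipogenic gate was split by Pi16, a marker of adventitial fibroblasts, and Smoc2, a marker of another fibroblast subset, with at least 2 UMIs of 1 and at most 1 of each other dividing gene. Levels of Ptx3, Ptgs1, Ptgs2 and Ptgis were higher in Pi16 barcodes, and levels of Ptges and Hpgd in Smoc2 barcodes. The Pi16 level of Ptx3 was 4.20 to 13.3 times its Smoc2 level over the 5 libraries. The corresponding ratio was 2.97 to 6.34 for Ptgs2, 6.07 to 10.9 for Ptgs1 and 2.52 to 5.21 for Ptgis. For Ptges it was 0.317 to 0.641 and for Hpgd 0.0892 to 0.112. All 6 ratios were thus on the same side of 1 in each library, frail and control.

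Ptx3 in Pi16 barcodes had 173 and 115 CPM in frail, against 260, 349 and 431 in control, with means of 144 ± 40.6 and 347 ± 85.2 (SD, n = 2 and 3). In Smoc2 barcodes it had 41.1 and 8.65, against 25.4, 58.7 and 48.9, and the groups overlapped. Ptgs2 was below control in both subsets, at 188 and 385 CPM in frail Pi16 barcodes, against 510, 688 and 592 in control, and at 58.6 and 60.7 in frail Smoc2 barcodes, against 172, 117 and 103 in control. Ptgis was apart in Pi16 barcodes, at 81.7 and 86.7 CPM in frail, against 104, 131 and 107 in control. Hpgd in Smoc2 barcodes was 60.1 and 143 in frail, against 46.1, 56.9 and 72.7 in control. The Pi16 subset made up 11.8% and 12.4% of fibro-adipogenic barcodes in frail, against 23.0%, 19.0% and 10.2% in control. The Smoc2 subset made up 50.7% and 40.1% in frail, against 30.1%, 34.9% and 36.8% in control, so the subset with little Ptx3 was the larger in frail libraries. How far these shares bear on the sums over the gate was not tested.

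**Figure D5:**
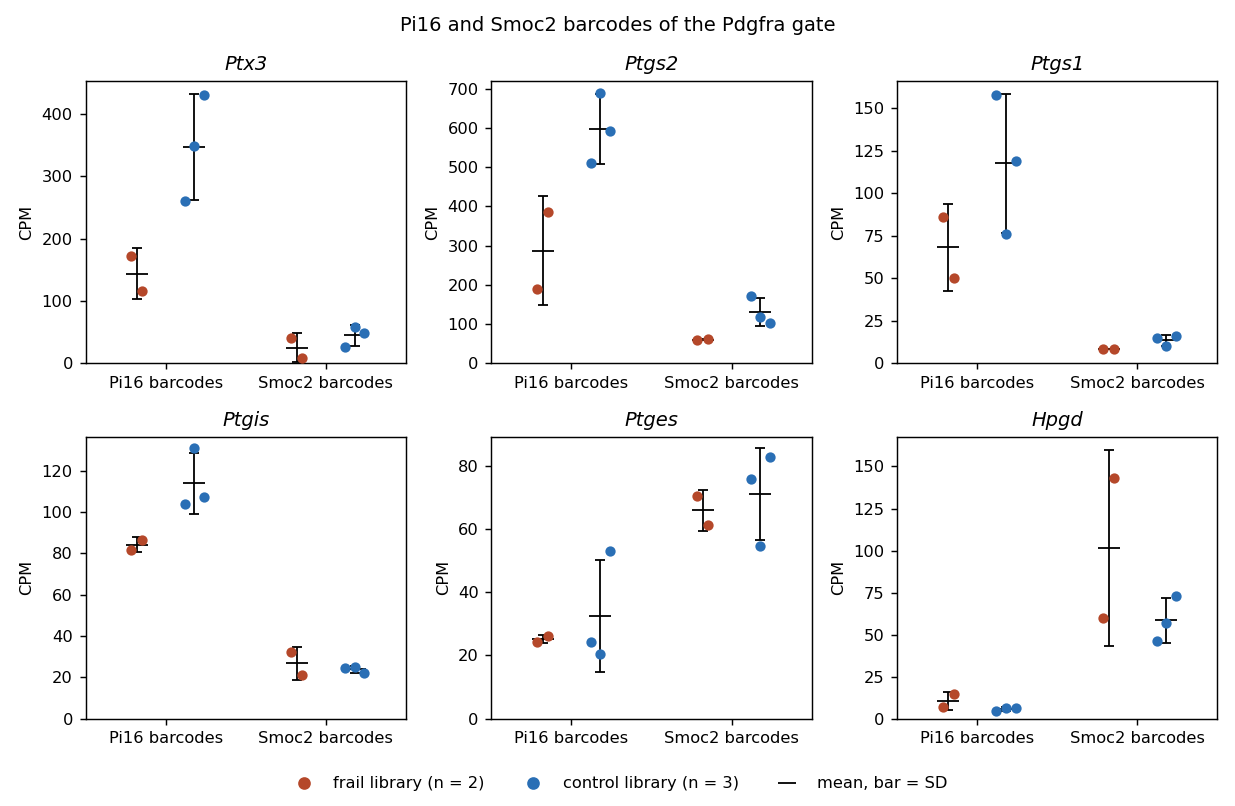
CPM of 6 genes in Pi16 and Smoc2 barcodes of the Pdgfra gate, on linear axes from 0; points are libraries, frail (n = 2) left of control (n = 3), with mean and SD. Ptx3, Ptgs2, Ptgs1 and Ptgis are higher in Pi16 barcodes and Ptges and Hpgd in Smoc2 barcodes, in every library.

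Endothelial barcodes with Ackr1, a gene of venules, had more Ptgs1 than the other endothelial subsets in each library, at 267 and 443 CPM in frail, against 250, 202 and 332 in control, from 43 and 37 frail and 42, 19 and 25 control barcodes. Endothelial barcodes with Aqp7, a capillary water and glycerol channel, had 29.4 and 88.8 CPM of Ptger4 in frail, against 51.8, 44.1 and 51.3 in control. They made up 17.3% and 41.2% of the gate in frail, against 28.3%, 18.1% and 16.0% in control. Endothelial barcodes with none of the dividing genes had 28.9 and 74.0 CPM of Ptger4 in frail, against 41.4, 42.2 and 37.8 in control, so frail library 2 was the highest there too. Macrophage barcodes with Folr2, a marker of resident macrophages, had 138 and 386 CPM of Hpgd in frail, against 213, 103 and 125 in control. Those with Ccr2, a chemokine receptor of recruited monocytes, had 47.4 and 123 in frail, against 46.3, 74.9 and 84.3 in control.

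By likeness over 30 sums of library and gate, the genes whose log2 level followed Ptx3 most closely were Duox1 (Pearson r 0.93), Aif1l (0.92), Mrgprg (0.91) and Sema3c (0.91), among 11846 genes. For Ptgs2 they were Dnm1 (0.87), Apbb1ip (0.84), Vegfd (0.83) and Fgl2 (0.81). For Hpgd they were Itsn1 (0.90), Ang (0.89), Myo5a (0.89) and Ctsh (0.88). The sums share libraries and the mast cell gate is small. Without that gate the closest genes to Ptgs2 were Sema3c (0.95), Pi16 (0.94), Dpp4 (0.94) and Il6 (0.92), none of them among the first 4, while Ptx3 kept 2 of its 4. Hpgd kept only Itsn1.

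Around these genes, lists of the eicosanoid pathway, of Ptx3 partners and of inflammatory genes were read in the same fits. They were chosen with earlier results of these data known. In fibro-adipogenic barcodes, 11 of 12 other prostanoid synthases and breakdown genes were tested, 1 was called lower and none higher (0.0252% of all genes were called there), with a median log2 difference of -0.23, against 0.00 over all genes. The called gene was Akr1c18, which encodes a hydroxysteroid dehydrogenase of the aldo-keto reductase family, and it is named after its values were seen. It had 0.153 and 0.145 CPM in frail, against 3.64, 2.82 and 5.44 in control, from 3 and 3 UMIs in frail and 67, 47 and 172 in control. The groups were far apart at a low level, with a log2 difference of -4.70 (SE 0.50, edgeR adjusted p = 0.0354). The call was lost without frail library 1 (edgeR adjusted p = 0.222), frail library 2 (0.503) or control library 3 (0.153), and with gates at 1 UMI (0.204) or 4 UMIs (0.0900). Ptgir, the prostacyclin receptor, had 39.8 and 57.2 CPM in frail, against 27.5, 19.9 and 31.0 in control, apart and higher, and did not pass (log2 difference 0.87, SE 0.20, edgeR adjusted p = 0.415). Slco2a1, the prostaglandin uptake transporter, had 18.4 and 9.48 in frail, against 31.2, 26.8 and 23.3 in control (log2 difference -0.97, SE 0.31, edgeR adjusted p = 0.751). The phospholipases that release arachidonic acid had a median of -0.07 over the 7 of 12 tested, none called, and Pla2g4a overlapped between the groups, at 42.5 and 52.7 in frail and 69.8, 48.0 and 48.5 in control.

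Of the pentraxin and hyaluronan list, 12 of 21 genes were tested in fibro-adipogenic barcodes, none was called, and the median log2 difference was -0.45. Tnfaip6, whose protein binds Ptx3, had 215 and 173 CPM in frail, against 395, 442 and 290 in control, and Has1, a hyaluronan synthase, had 214 and 219, against 374, 289 and 264. Both were below control in each frail library without passing the test (edgeR adjusted p = 0.501 and 0.893). Of the cytokine and NF-kappa-B list, 22 of 24 were tested, none was called, and the median was -0.40. Il6, the cytokine gene, had 46.7 and 46.7 CPM in frail, against 114, 118 and 102 in control, with a log2 difference of -1.28 (SE 0.17) and an edgeR adjusted p of 0.0845. Tnfaip3, a feedback inhibitor of NF-kappa-B, had 15.6 and 22.1 in frail, against 38.7, 49.3 and 52.4 in control (log2 difference -1.34, SE 0.20, edgeR adjusted p = 0.109). With DESeq2, Tnfaip6, Il6 and Tnfaip3 passed, at adjusted p = 0.0278, 1.31e-08 and 4.43e-06. Cebpb, a C/EBP transcription factor gene, was higher in both frail libraries, at 684 and 834 CPM against 480, 525 and 506 in control, and did not pass (edgeR adjusted p = 0.805). Immediate early genes had a median of -0.10 over 22 of 22 tested, with 0 called. In the satellite cell gate, 2 of 17 tested genes of the cytokine list were called lower, where 0.0596% of all 8393 genes were called in either direction. They were Tnfaip3, at 25.4 and 36.7 CPM in frail against 169, 113 and 89.7 in control (log2 difference -1.97, SE 0.33, edgeR adjusted p = 0.0371), and the chemokine gene Ccl2, at 78.4 and 80.2 in frail against 281, 285 and 211 in control (log2 difference -1.72, SE 0.25, edgeR adjusted p = 0.00769). The Tnfaip3 call was lost without control library 1 (edgeR adjusted p = 0.0682) or control library 2 (0.0995) and with gates at 1 UMI (0.0593) or 4 UMIs (0.802), and the Ccl2 call with gates at 4 UMIs (0.999).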

How the data were processed

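Gene-by-barcode UMI counts for 5 libraries were used as deposited. Per the file headers the matrices came from Cell Ranger 7.0.0. The submitters' processing notes also name bcl2fastq 5.01, Seurat 4.1.2 and the GRCm38 build. The deposited counts are not normalised and are not filtered beyond a lowest total of 500 UMIs.

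Counts were summed per library over retained barcodes and over each gate (Python 3.11.15, scanpy 1.11.5). Levels are CPM, UMIs of a gene per 1000000 UMIs of the same sum. Sums were tested with edgeR 4.0.16 (TMM, filterByExpr, robust quasi-likelihood F test, R 4.3.3), adjusted over all genes tested, at a threshold of 0.05. The standard error is the fitted log2 difference divided by the square root of F. The difference between 2 gates was tested with limma 3.58.1, taking log2 CPM at prior count 2. Groups called apart in counts over genes use TMM-scaled levels. Doublets were kept, and Scrublet removal was an alternative, as were DESeq2 1.42.0, other filters and gates, a replicate block and leaving out each library. The scripts were tested on simulated counts. The exact permutation test used scipy 1.17.1.

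The 9 genes, the lists and the tests were chosen with earlier results of these data known. Named besides the 9 were, per list, at most 4 genes with the largest rise and 4 with the largest fall at an average log2 CPM of at least 3, and, for Ptx3, Ptgs2 and Hpgd, the 4 genes most alike in level. Akr1c18 lay below that level and was named because edgeR called it. The likeness result of Ptges is not reported here. IDs matched GENCODE vM21 for 52081 of 55357 genes. Every number of UMIs carries counting error, and barcodes of a library are not replicates.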

Additional observations from a re-analysis of the deposited data

Results flagged for a closer look

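A level above that of every control library was seen for 3 genes in barcodes that no comparison between gates used. Over all retained barcodes, 9.48% of all 19989 genes tested lay above in this way. The share of all genes within the sets below was not computed, so nothing is read from the count. Ptgis in barcodes that passed no gate averaged 168.5 CPM in frail, from 193 and 144, against 114, 89.2 and 98.4 in control libraries. Within them, barcodes with Myh11, a smooth muscle gene, had 312 and 297 CPM of Ptgis in frail, against 144, 87.7 and 257 in control, while barcodes with the tendon gene Tnmd overlapped, at 276 and 404 in frail and 288, 256 and 265 in control.

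Ptgs1 in barcodes left out for few genes or a high mitochondrial share averaged 26.7 CPM in frail, from 22.9 and 30.6, against 21.9, 16.7 and 21.7 in control. It rested on 101 and 81 UMIs in frail, against 41, 28 and 62 in control. Ptgds in barcodes that passed more than 1 gate averaged 0.617 CPM in frail, from 6 and 12 UMIs, against 4, 0 and 7 UMIs in control. With 2 frail and 3 control libraries none of these differences was tested.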

How the results depend on the processing

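The log2 differences of Ptx3 and Ptgs2 kept their sign in all 149 alternatives run, of which 14 moved the value by more than its spread. Both genes were chosen as lower in these same libraries, so nothing is read from the kept sign. For the other genes, which were not chosen in this way, 37 of 427 alternatives reversed the sign. For the 10 other named genes tested in 11 combinations of gene and gate, 143 alternatives reversed no sign, and 10 lost and 11 gained a call. Without 1 library the difference of Ptx3 ranged from -2.37 to -1.41 over all barcodes and from -2.03 to -1.05 in the Pdgfra gate, both ends being set by a frail library.

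Genes called changed most. DESeq2 called 288 genes over all barcodes, 113 (Cdh5), 106 (Pdgfra), 95 (Rgs5), 45 (C1qa) and 12 (Pax7). Without a filter on low counts edgeR called 15 over all barcodes, 293 (Cdh5), 123 (Pdgfra), 53 (Rgs5), 171 (C1qa), 26 (Cpa3) and 74 (Pax7). RLE scaling called 12 in Cdh5. A 5% mitochondrial limit called 0 in Cdh5 and 19 in Cpa3. Without Scrublet doublets the counts were 16 (Cdh5), 1 (C1qa) and 9 (Pax7). Gates at 1 UMI with 0 of the others gave 26 (Cdh5), 1 (Pdgfra), 0 (Cpa3) and 10 (Pax7), and gates at 4 UMIs gave 0 (Cdh5), 8 (Pdgfra) and 0 (Pax7). Without 1 library the counts ranged from 0 to 24 (Cdh5), 0 to 16 (Pdgfra), 0 to 33 (Rgs5), 0 to 20 (C1qa), 16 to 73 (Cpa3) and 5 to 49 (Pax7). The cause was not tested.

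The labels number the libraries but do not pair them, and libraries of the same number correlated at -0.013 and 0.166 over all barcodes. With the replicate block, which leaves control library 3 without a partner, edgeR called 366 genes over all barcodes, 92 (Cdh5), 156 (Pdgfra), 142 (Rgs5), 27 (Cpa3) and 45 (Pax7), and 3 genes differed between gates. With the block Ptgs1 and Hpgd passed in the Pdgfra gate, at -1.14 (edgeR adjusted p = 0.00727) and 1.08 (edgeR adjusted p = 0.0148), and so did Slco2a1, Tnfaip6, Il6 and Tnfaip3. The sign turned for Ptges over all barcodes (0.27) and in the Pdgfra gate (0.22), Ptgds over all barcodes (0.049), Hpgd in the Rgs5 gate (1.20) and Hpgd between gates (-0.095).

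Other signs turned at small values. In the Pdgfra gate Ptges was 0.0029 with RLE, 0.0035 with DESeq2, 0.0047 at 5% and 0.027 at 4 UMIs. At 5%, Ptgds over all barcodes was 0.13 and Ptgs1 in Cdh5 -0.019. Hpgd in Cdh5 was -0.46 at 1 UMI and -0.0065 at 4 UMIs. Gates at 1 UMI gave 0.79 for Ptgis in Rgs5, and 0.058 for Ptgis and 0.16 for Ptger4 in C1qa. Without 1 library, log2 differences ranged over all barcodes from -0.48 to 0.26 (Ptges), -0.23 to 0.60 (Ptgis), -0.64 to 0.031 (Ptgds), -0.15 to 0.93 (Hpgd) and -0.52 to 0.33 (Ptger4). In Cdh5 they ranged from -0.11 to 0.25 (Ptgs1), -0.20 to 0.70 (Ptgis), -0.30 to 1.32 (Hpgd) and -0.53 to 0.83 (Ptger4), and in Pdgfra from -0.17 to 0.22 (Ptges). In Rgs5 they ranged from -1.01 to 0.19 (Ptgis) and -1.10 to 1.20 (Hpgd), and in C1qa from -1.02 to 0.13 (Ptgis) and -0.28 to 0.12 (Ptger4). Between gates they ranged from -0.10 to 0.75 (Hpgd) and -1.56 to 0.43 (Ptger4). Where a library left out took a gene below the filter, no value was had. With 2 frail libraries the tests have little power, and low-count genes such as Ptgds and Ptger2 are limited by depth.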

Other observations

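Ungated barcodes held the same pair of genes at lower levels in frail libraries. Ptx3 had 24.2 and 11.4 CPM there in frail, against 92.6, 73.8 and 80.4 in control, and Ptgs2 had 44.9 and 48.9, against 164, 140 and 115. Ungated barcodes with Pi16 had 127 and 82.1 CPM of Ptx3 in frail, against 251, 159 and 406 in control. Ptgs2 in ungated barcodes with S100a8, a neutrophil gene, was 270 and 510 in frail, against 441, 319 and 43.0 in control, from 48 and 13 frail and 17, 7 and 8 control barcodes. In control library 3, 368 ungated barcodes carried the keratinocyte gene Krt14, against 0 in each of the other libraries.

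Barcodes left out by the filters had 2.04 and 14.7 CPM of Ptx3 in frail, against 33.2, 10.7 and 11.9 in control, so the groups overlapped there. For Ptgs2 they had 7.69 and 17.0 in frail, against 66.3, 22.1 and 24.5 in control.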
